A study of Macaca mulatta with 12 samples.

Results

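The estrogen by progesterone interaction asks whether a hormone changed a transcript by the same amount with and without the other hormone. It was computed on the log2 scale as (both hormones minus estrogen) minus (progesterone minus placebo). All 12 arrays of the series enter it, 3 from each of its 4 groups, and every probe set bright enough to be tested was read, 7535 of 12558 after the array controls were left out. A value of 0 means that the log2 changes of the hormones added up. A positive value means that a transcript read higher with both hormones than that sum, and a negative value means that it read lower.

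The tissue was the dorsal raphe nucleus of female rhesus macaques, a midbrain region whose serotonin neurons innervate much of the forebrain. Each array is 1 monkey, so the replicates are separate animals and their spread covers animal and array together. Steroid capsules lay under the skin for 1 month before the tissue was taken. The placebo arrays are titled OVX1 to OVX3, and OVX is the usual abbreviation for ovariectomized, while the other labels do not mention the operation. The estrogen arrays are titled E1 to E3 and the arrays with estrogen and progesterone together EP1 to EP3. The progesterone arrays carry the source names P1 to P3 and titles that say progesterone but end in the codes EP1 to EP3, so the source names decided that group. The labels used here give neither a dose nor a hormone level in blood. Below, the values of a gene are deposited intensities in the order of arrays 1, 2 and 3 of a group.

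Estrogen acts through the receptors ESR1 and ESR2, and progesterone through the receptor PGR. In many tissues, including serotonin neurons of the macaque raphe, estrogen raises the amount of PGR, and progesterone is often given after or with estrogen for that reason. In the uterus progesterone is known to oppose several actions of estrogen. A response to progesterone can therefore depend on estrogen in either direction.

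The arrays were much alike in overall brightness, with medians of 74.2 to 87.1. Estrogen array 1 and both hormones array 1 stood apart, with 28S ribosomal RNA control signals of 841 and 1354 against at most 179 on the other 10 arrays, and GAPDH 3' to 5' ratios of 2.45 and 2.05 against at most 1.46. They enter the interaction with opposite signs, and values without both are given for part of the results below. The serotonin neuron label of the tissue was borne out by the serotonin transporter SLC6A4 at 220 to 495 and the transcription factor FEV at 104 to 289 over the 12 arrays. TPH1 read 0.53 to 3.60, no probe set was named TPH2, and the cerebellar granule cell gene GABRA6 read 1.98 to 19.5.

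No transcript passed the test of the interaction. limma called 0 of 7535 probe sets (0%) at an adjusted p under 0.05, with a lowest adjusted p of 0.439. An unadjusted p under 0.05 was reached by 376 probe sets (4.99%), 193 positive (2.56%) and 183 negative (2.43%), and 376.75 would reach it with no effect. The values below are therefore descriptions of the probe sets at the ends of the distribution, and none is a called interaction. Leaving out both arrays of high ribosomal signal gave 445 probe sets at that unadjusted threshold and still 0 calls.

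What the hormones did separately frames the interaction. With progesterone alone, limma called 3 of 7535 probe sets (0.0398%), and 621 (8.24%) had an unadjusted p under 0.05, of which 295 (3.92%) were higher and 326 (4.33%) lower. Added to estrogen, progesterone gave 0 calls (0%) and 216 such probe sets (2.87%), 112 higher (1.49%) and 104 lower (1.38%). Estrogen alone gave 0 calls (0%) and 238 (3.16%), 122 higher (1.62%) and 116 lower (1.54%). Estrogen added to progesterone gave 1 call (0.0133%) and 581 (7.71%), 306 higher (4.06%) and 275 lower (3.65%). Both hormones against placebo gave 1 call (0.0133%) and 255 (3.38%), 136 higher (1.8%) and 119 lower (1.58%). The comparisons that hold the progesterone arrays thus had the higher counts at the unadjusted threshold, and those that do not hold them stayed under 376.75.

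LPCAT4, an acyltransferase that remodels membrane phospholipids, had the smallest interaction p. It read 157, 103 and 104 with placebo, 91.4, 131 and 121 with estrogen, 15.9, 21.7 and 19.7 with progesterone, and 84.1, 154 and 164 with both hormones. The progesterone arrays lay far below all others, and the other groups overlapped. LPCAT4 fell by 2.24 on the log2 scale with progesterone alone (limma adjusted p = 0.0305), whereas progesterone on top of estrogen gave 0.16. Seen from the other hormone, estrogen alone gave −0.09, and estrogen on top of progesterone raised it by 2.31 (limma adjusted p = 0.0259). The interaction was 2.40 ± 0.40 (SE), with a 95% interval of 1.53 to 3.28 and a limma adjusted p of 0.439. These calls and the interaction rest on the same 3 low progesterone readings. At such dim readings the offset of 8.26 added before the log compresses fold changes, so it sets part of these sizes. Over the alternative settings and left-out arrays the interaction ran from 1.70 to 2.72. The change with progesterone alone ran from −2.43 to −1.56. The call of progesterone alone was lost without placebo 1 or 2, estrogen 3, both hormones 2 or any progesterone array (highest adjusted p 0.121). That of estrogen on progesterone was lost without placebo 2, estrogen 3, both hormones 2 or 3 or any progesterone array (highest 0.230). In such bulk tissue, fewer cells of a type and less RNA per cell cannot be told apart.

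UBXN7, an adaptor of the p97 segregase that extracts ubiquitinated proteins, ran the other way. It read 21.4, 35.8 and 47.1 with placebo, 50.1, 38.0 and 38.0 with estrogen, 105, 115 and 138 with progesterone, and 49.0, 33.9 and 36.3 with both. Only the progesterone arrays stood apart, and all 3 lay above the other 9. It rose by 1.61 with progesterone alone (limma adjusted p = 0.0305) and gave −0.10 when progesterone was added to estrogen. The interaction was −1.71 ± 0.30 (SE), interval −2.37 to −1.04 (limma adjusted p = 0.439). The call of progesterone alone was lost without placebo 1 or 2, estrogen 2 or 3 or any array of both hormones, with the values as deposited (adjusted p = 0.0702) and with a robust variance trend in limma (0.0930), and leaving out any progesterone array put the probe set under the brightness filter.

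PRRC2C, a gene for a proline-rich coiled-coil protein, had the same shape. Its intensities were 53.4, 104 and 102 with placebo, 142, 117 and 119 with estrogen, 227, 261 and 241 with progesterone, and 136, 106 and 140 with both. The estrogen arrays and those with both hormones overlapped, between the placebo and progesterone arrays. It rose by 1.46 with progesterone alone (limma adjusted p = 0.0451) against 0.00 on estrogen, for an interaction of −1.46 ± 0.30 (SE, adjusted p = 0.585). The rise passed with estrogen 1 left out and with no other single array left out. It was also lost in limma with the values as deposited (adjusted p = 0.0940), with no filter (0.0522) and with a robust variance trend (0.0545). A second PRRC2C probe set had an interaction of −0.08 and did not share the pattern.

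**Figure D1:**
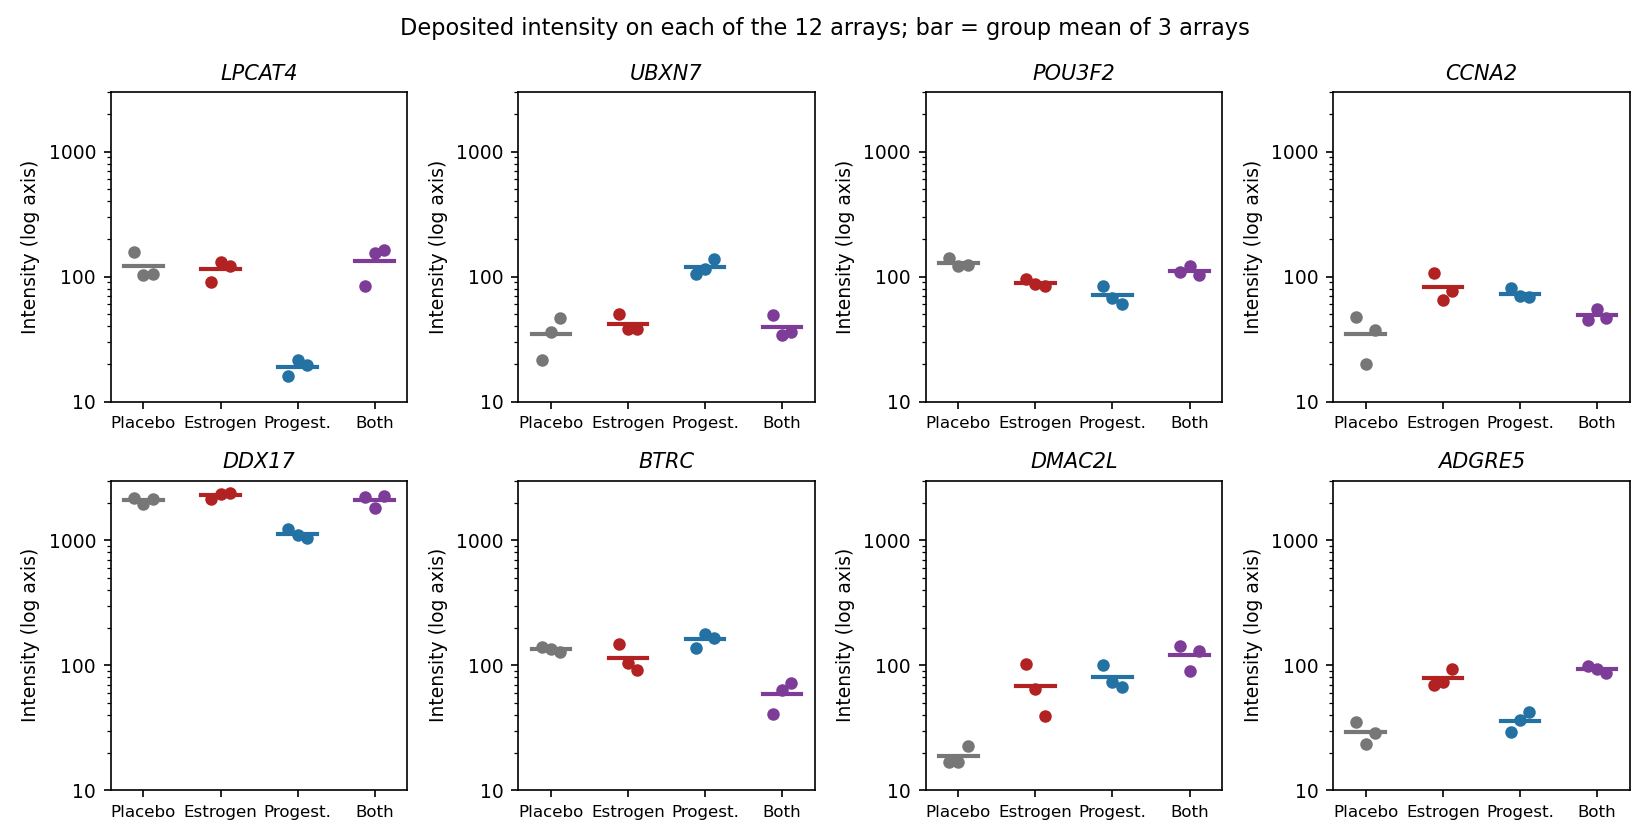
Deposited intensity (log axis) of 8 genes on each array, with points for single arrays of the placebo, estrogen, progesterone and combined groups and a bar at the mean of 3 arrays. LPCAT4, UBXN7 and DDX17 differ on the progesterone arrays, POU3F2 and CCNA2 shift with each hormone alone and less with both, BTRC is lower with both, and DMAC2L and ADGRE5 stay above placebo when the hormones are combined.

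The next question was which changes of a single hormone were no longer seen when the other was present. For progesterone, the comparisons without estrogen (progesterone minus placebo) and with it (both minus estrogen) share no array, so probe sets chosen in the first can be read in the second. The 295 probe sets higher with progesterone alone at an unadjusted p under 0.05 had a median change of 0.66 there, a value enlarged by the choice itself, and 0.04 on top of estrogen. Of these, 172 (58.3%) kept the sign, where 50.3% of all tested probe sets were above 0. Only 6 (2.03%) were higher on estrogen at an unadjusted p under 0.05, against 1.49% of all tested, and 26 (8.81%) kept at least 50% of their change. The 326 probe sets lower with progesterone alone went from a median of −0.65 to −0.03 on estrogen, 176 (54.0%) kept the sign and 29 (8.90%) kept at least 50%. The median over all tested probe sets was 0.0019.

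A stricter choice gave the same picture. The 80 probe sets higher with progesterone at an unadjusted p under 0.01 had medians of 1.04 alone and 0.01 on estrogen. For the 89 lower ones these were −0.80 and −0.0049. Across all 7535 probe sets the progesterone change without estrogen and that with estrogen had a Pearson r of −0.01 and a Spearman correlation of 0.02. This is a description over probe sets of 1 platform, which are not independent.

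By their medians, estrogen changes carried over little as well, though a larger share of them than of progesterone changes kept at least 50%. The 122 probe sets higher with estrogen alone at an unadjusted p under 0.05 had a median of 0.71 there and 0.07 on top of progesterone, and 27 (22.1%) kept at least 50%. The 116 lower ones went from −0.69 to −0.05, and 20 (17.2%) kept at least 50%. On progesterone, 9 of the higher (7.38%) and 6 of the lower ones (5.17%) had the same sign at an unadjusted p under 0.05. Over all tested probe sets these shares were 4.06% and 3.65%. For the shares keeping at least 50%, a background over all tested probe sets was not computed. Across probe sets the estrogen change without and with progesterone had a Pearson r of 0.02 and a Spearman correlation of 0.04. With estrogen array 1 (high ribosomal signal) left out, the median of the lower ones on progesterone was 0.04. The count of probe sets for estrogen alone was itself under the 376.75 counted with no effect, so the chosen sets need not hold a response.

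**Figure D2:**
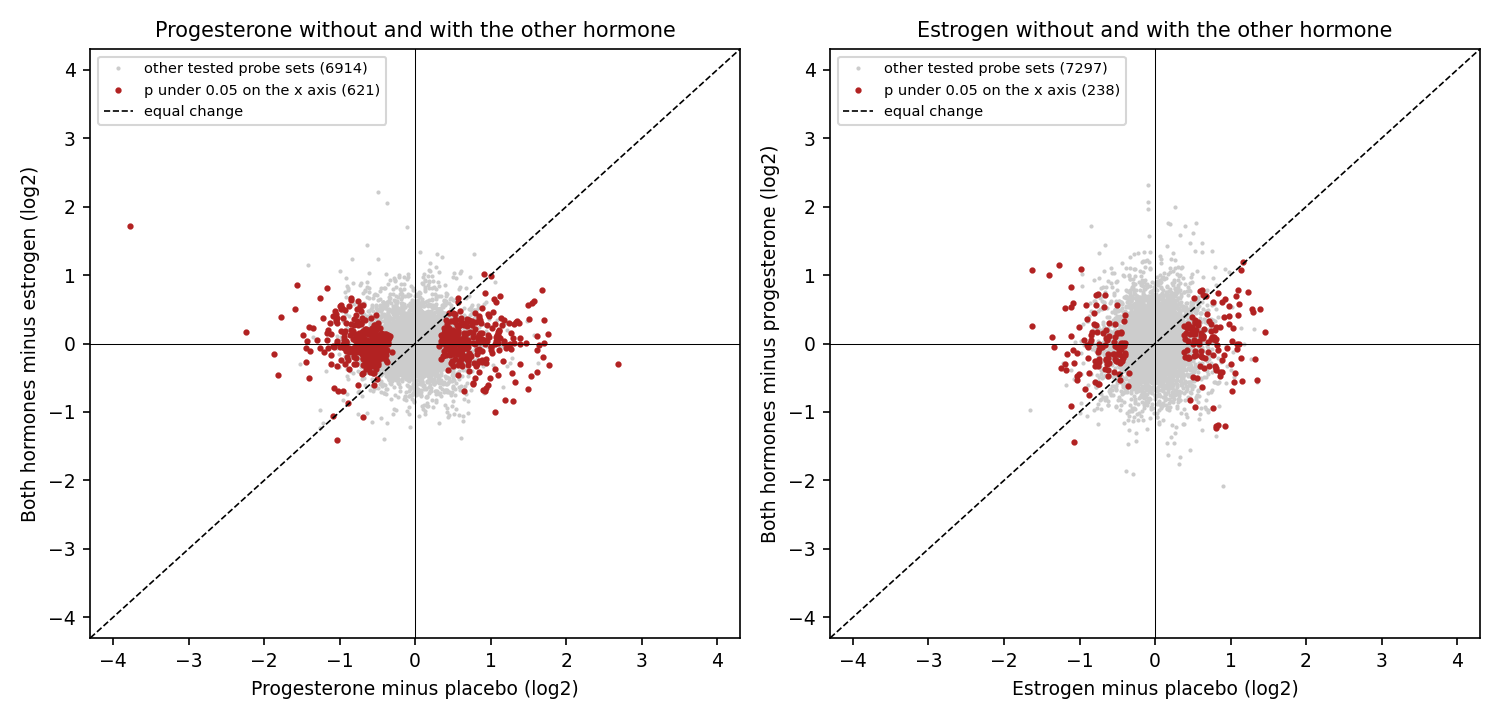
Log2 change of every tested probe set without (x axis) and with (y axis) the other hormone, for progesterone on the left and estrogen on the right; coloured points had an unadjusted p under 0.05 on the x axis and the dashed line marks equal change. The 621 chosen progesterone points and the 238 chosen estrogen points lie along the horizontal axis rather than the dashed line, and the farthest point on the left is an HSPA2 probe set whose progesterone readings were below the offset.

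The same probe sets were then followed array by array. After each probe set was centred on its mean of 12 arrays, the 295 higher with progesterone had medians of −0.41, −0.22 and −0.16 on the placebo arrays and 0.37, 0.38 and 0.40 on the progesterone arrays, which chose them. On the arrays that did not choose them the medians were 0.01, −0.10 and −0.08 with estrogen and 0.0057, −0.06 and 0.0070 with both. The 326 lower ones had 0.0076, 0.17 and 0.11 with estrogen and 0.07, 0.13 and 0.04 with both. Estrogen arrays and arrays with both hormones therefore overlapped and lay between the choosing groups. The choice and the centring place unused arrays between those groups even without a response. Placebo array 1 was the farthest of the placebo arrays in both sets, and it also stood apart on principal component 2, at 33.8 against at most 5.12 elsewhere. At the other end of that component lay the progesterone arrays, at −18.2, −9.16 and −15.9, with −5.41 (estrogen array 1) the next lowest. What sets the progesterone arrays apart there was not tested.

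**Figure D3:**
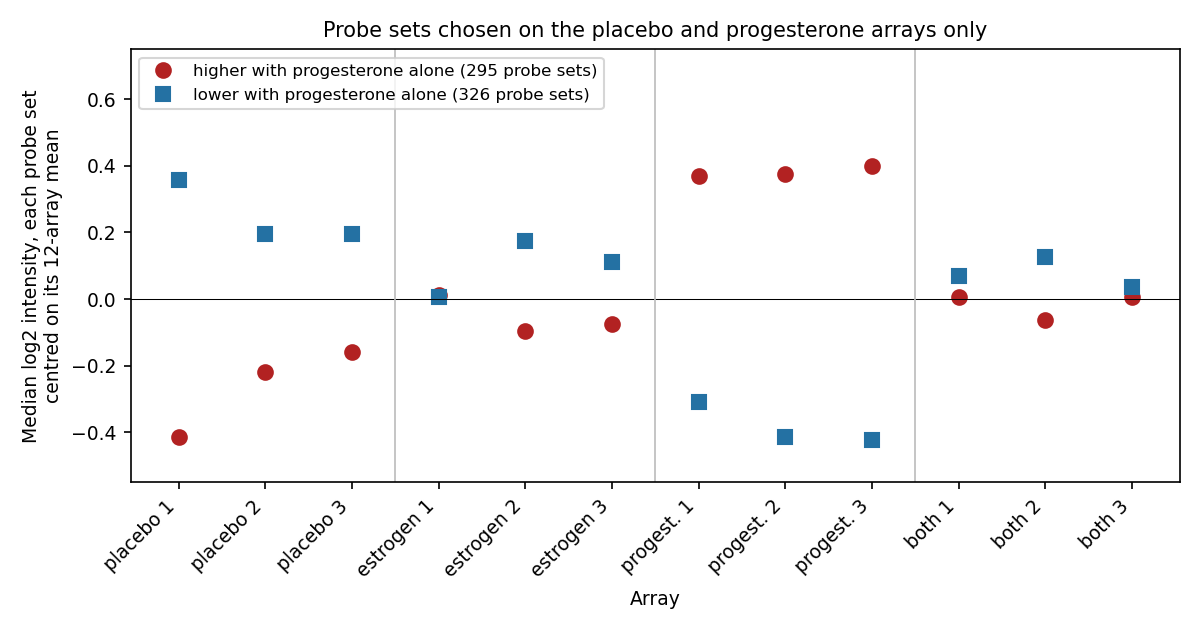
Median log2 intensity on each array, each probe set centred on its mean of 12 arrays, for the 295 probe sets higher and the 326 lower with progesterone than with placebo (unadjusted p under 0.05). The placebo and progesterone arrays chose the sets; the 3 estrogen arrays and the 3 arrays with both hormones lie between −0.10 and 0.17.

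A progesterone change was called reversed by estrogen where both hormones differed from progesterone in the opposite direction at an unadjusted p under 0.05 and the remaining difference from placebo was smaller than 50% of that with progesterone. By this rule 225 of the 621 probe sets (36.2%) were reversed, 88 that had been higher and 137 that had been lower. For estrogen changes reversed by progesterone the count was 51 of 238 (21.4%), 18 higher and 33 lower. An unadjusted interaction p under 0.05 was reached by 143 of the 225 (63.6%) and 28 of the 51 (54.9%), beside 4.99% of all tested. The others met the rule without reaching even that threshold. The share that would meet the rule with no effect was not computed. In each rule the hormone group enters both comparisons, so an extreme reading there raises the count, and no test was made. The estrogen count was 98 with both high-ribosomal arrays left out, 100, 107 and 85 without estrogen 1, 2 and 3, and 31 and 34 without both hormones 2 and placebo 3. The progesterone count was 149 without both hormones 2.

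A stricter rule asked for an unadjusted p under 0.01 in both steps and single-hormone arrays outside the placebo range. Among genes, 52 of 142 progesterone changes were reversed by it, 25 higher and 27 lower, and 3 of 30 estrogen changes, all lower. Of these, 46 of the 52 and 2 of the 3 had an unadjusted interaction p under 0.05. Both steps use the same hormone arrays, and the share to be counted with no effect was not computed. Besides UBXN7 and PRRC2C, the upward ones with the smallest p were AGGF1, an angiogenic factor, LSAMP, a neuronal cell adhesion protein, NKTR, a cyclophilin-related protein, and CDC42BPA, a kinase acting on the cytoskeleton. AGGF1 read 72.9, 72.0 and 64.1 with placebo, 59.3, 80.3 and 54.3 with estrogen, 155, 149 and 149 with progesterone, and 72.6, 84.8 and 75.0 with both. LSAMP read 72.8, 95.9 and 106, then 94.7, 87.3 and 84.1, then 263, 151 and 215, then 104, 96.5 and 112 in the same order of groups. In both genes the progesterone arrays lay above the other 9, and those 9 overlapped. Their interactions were −0.79 ± 0.24 and −0.91 ± 0.28 (SE, limma adjusted p = 0.914 for each). NKTR gave −1.22 here and −1.30 and −0.24 on its other probe sets. CDC42BPA gave −1.62, and 0.32 on another probe set. Its mean was 150 with progesterone against 33.4 to 37.9 in the other groups. With each of the 12 arrays left out in turn, it stayed above the brightness filter in only 9 cases.

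Among the downward ones, POU3F2, a POU-domain factor of neural progenitors and neurons, read 141, 123 and 124 with placebo, 95.1, 88.0 and 84.7 with estrogen, 84.2, 67.5 and 60.7 with progesterone, and 109, 122 and 102 with both. Each hormone alone lay below all placebo arrays, and the combination lay above all arrays of either hormone alone. The changes were −0.51 with estrogen, −0.80 with progesterone and 0.26 when progesterone was added to estrogen, none past the threshold, and the interaction was 1.07 ± 0.23 (SE, limma adjusted p = 0.585). SOX9, a glial transcription factor that is also on the astrocyte marker list, read 283, 311 and 297 with placebo, 354, 325 and 272 with estrogen, 193, 139 and 165 with progesterone, and 278, 296 and 282 with both. Only its progesterone arrays stood apart, with an interaction of 0.64 ± 0.23 (SE, adjusted p = 0.923). The summed signal of the 9 astrocyte markers was 6975 to 7183 on the progesterone arrays, within the 4335 to 7742 of the placebo arrays. SOX9 was the only 1 of these 9 markers with an interaction p under 0.05.

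DDX17, an RNA helicase that is also a coactivator of steroid receptors, had low progesterone readings. It read 2171, 1956 and 2116 with placebo, 2136, 2318 and 2383 with estrogen, 1223, 1098 and 1042 with progesterone, and 2232, 1824 and 2254 with both. The progesterone arrays lay below the other 9, which overlapped. Its change with progesterone alone was −0.91 (limma adjusted p = 0.0789) and its interaction 0.81 ± 0.21 (SE, adjusted p = 0.842), but a second probe set gave −0.07 for the interaction. NTRK2, the receptor for brain-derived neurotrophic factor, read 645, 344 and 693, then 348, 460 and 324, then 275, 220 and 219, then 458, 483 and 429 in the same order. Its interaction was 1.42 ± 0.36, while its other probe sets gave −0.84, −0.50 and 0.31. RANBP9, a scaffold protein, had 0.88 on this list and −2.14 on another probe set, so its probe sets disagreed in direction.

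Under the stricter rule, 3 genes met the description of an estrogen change reversed by progesterone. They were GHRH, the hypothalamic hormone that releases growth hormone, RCVRN, a calcium sensor of photoreceptors, and MYOD1, a muscle transcription factor. Their changes with estrogen alone did not pass (limma adjusted p = 0.9999 for each), nor did those of progesterone on estrogen. None is therefore an established reversal. GHRH read 91.5, 106 and 98.3 with placebo, 38.8, 70.0 and 59.6 with estrogen, 68.0, 82.3 and 94.6 with progesterone, and 122, 93.0 and 95.2 with both. RCVRN read 205, 308 and 172 with placebo, 130, 151 and 103 with estrogen, 153, 181 and 257 with progesterone, and 270, 247 and 200 with both. The rule itself required the estrogen arrays to lie outside the placebo range and to differ from both hormones. In each of these genes they lay below all arrays of these groups, and in GHRH estrogen array 2 overlapped progesterone array 1. The interactions were 1.08 ± 0.33 for GHRH and 1.05 ± 0.35 for RCVRN (SE, limma adjusted p = 0.914 and 0.923). They were 0.70 and 0.95 with both high-ribosomal arrays left out. MYOD1 gave 0.90 ± 0.45, and 0.25 without those arrays.

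The form of the 376 interactions at an unadjusted p under 0.05 was described by the group that lay farthest from the other 3. It was progesterone in 205 (54.5%), both hormones in 76 (20.2%), placebo in 57 (15.2%) and estrogen in 38 (10.1%). Over all tested probe sets these shares were 36.0%, 22.0%, 21.4% and 20.6%. Of the 77 at p under 0.01, 54 (70.1%) had the progesterone group apart. In 346 (92.0%) the hormones alone had changes of the same sign, against 62.7% of all tested, and in 152 (40.4%, against 11%) each hormone brought the other's change back toward placebo. The choice by interaction itself favours these forms, so the shares are descriptions.

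**Figure D4:**
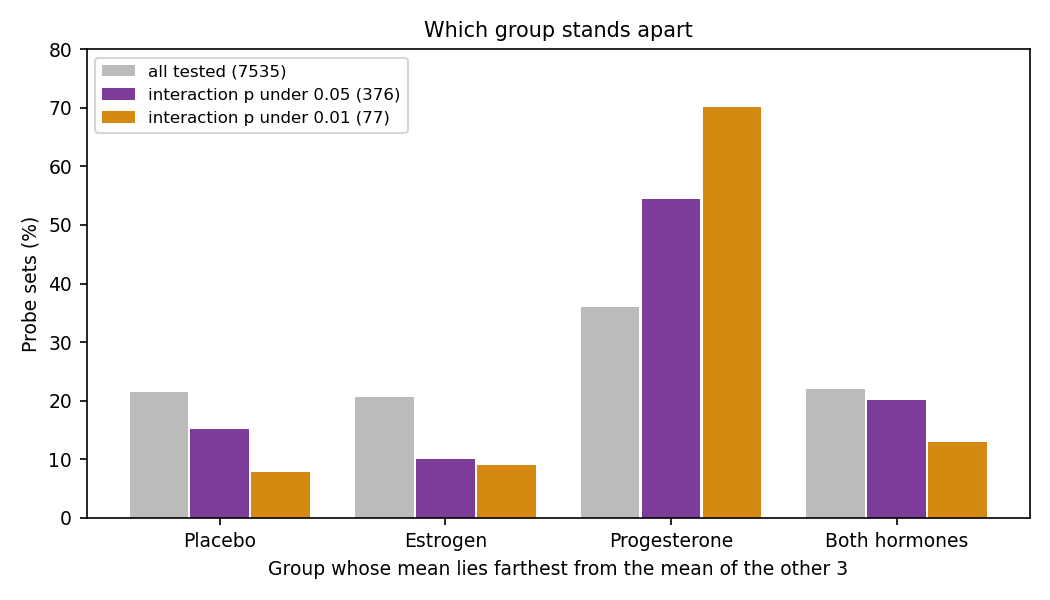
Share of probe sets (%, bars from 0) by the group whose mean lies farthest from the mean of the other 3, for all tested probe sets and for those with an interaction p under 0.05 or 0.01. The progesterone bars are the highest in each set, at 36.0%, 54.5% and 70.1%.

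CCNA2, the cyclin that drives S phase, was 1 of those with higher readings under each hormone alone than under placebo or the combination. It read 47.1, 19.9 and 37.4 with placebo, 106, 65.1 and 77.0 with estrogen, 81.1, 69.9 and 68.7 with progesterone, and 45.2, 54.8 and 46.8 with both. Each hormone alone lay above all placebo arrays and above all arrays of the combination, while the combination overlapped placebo array 1. Its changes were 1.05 with estrogen and 0.93 with progesterone, neither past the threshold, and −0.69 when progesterone was added to estrogen. The interaction was −1.62 ± 0.34 (SE, limma adjusted p = 0.585), and −0.25 on a second probe set.

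ELN, which encodes the elastic fibre protein elastin, had a related form, with 32.1, 108 and 59.9 on placebo, 149, 77.7 and 124 on estrogen, 129, 133 and 136 on progesterone, and 63.7, 57.5 and 41.2 with both. The combination lay below all arrays of either hormone alone, and its interaction was −2.05 ± 0.46 (SE, limma adjusted p = 0.585). KIFC1, a spindle kinesin, read 81.1, 42.9 and 36.6 with placebo, 56.4, 76.3 and 103 with estrogen, 128, 115 and 140 with progesterone, and 57.1, 35.3 and 29.0 with both. Its progesterone arrays were the highest of all, and its interaction was −2.02 ± 0.44 (adjusted p = 0.585), against 0.73 on a second probe set. SLC12A4, a potassium-chloride cotransporter, read 149, 155 and 56.9 with placebo, 57.8, 40.1 and 44.1 with estrogen, 38.9, 40.2 and 47.8 with progesterone, and 72.1, 110 and 69.5 with both. Its interaction was 1.94 ± 0.45 (adjusted p = 0.641), and placebo array 3 overlapped the estrogen arrays. Without placebo array 3 it was 2.37 and passed limma's threshold (adjusted p = 0.0469), the only call made by leaving out 1 array. The other SLC12A4 probe sets gave 0.61 and 0.22.

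PBX3, a homeodomain cofactor, read 659, 661 and 585 with placebo, 287, 415 and 413 with estrogen, 244, 337 and 309 with progesterone, and 520, 742 and 308 with both. Each hormone alone lay below all placebo arrays, and 2 of the 3 arrays with both hormones lay above all arrays of either hormone alone. Its interaction was 1.49 ± 0.40 (SE, limma adjusted p = 0.899). ERBB2, a growth factor receptor kinase, read 47.0, 44.9 and 58.6 with progesterone, below its other 9 arrays (lowest 74.4), and gave 1.49 ± 0.37 (adjusted p = 0.669), but 0.09 on a second probe set. The remaining positive values among the 10 highest were 2.41 for GNB2, a G-protein beta subunit, 2.17 for PFN1, the actin-binding profilin, 2.09 for the vesicle tethering subunit TRAPPC6A, 2.08 for the plasma membrane calcium pump ATP2B2, 1.70 for the peptidase CPQ and 1.54 for the sialic acid receptor SIGLEC7. GNB2 rested on low estrogen readings of 182 and 352 beside 1241, and a second probe set gave 0.07. ATP2B2 and CPQ gave 0.69 and 1.20 on their other probe sets.

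On the negative side the remaining values were −2.99 for the transcription factor NFIX, −2.14 for RANBP9, −2.02 for SLC4A7, a bicarbonate cotransporter, −2.01 for PTPN4, a tyrosine phosphatase, −1.89 for the cadherin CDH16, −1.72 for the detoxifying enzyme GSTT1 and −1.70 for TNFRSF14, a receptor of the tumour necrosis factor family. SLC4A7 read 17.9, 49.6 and 66.6 with placebo, 107, 65.8 and 68.2 with estrogen, 121, 125 and 175 with progesterone, and 54.4, 45.8 and 78.9 with both, with the progesterone arrays above all others. PTPN4 read 66.7, 67.4 and 79.0, then 219, 128 and 78.0, then 290, 184 and 208, then 157, 65.2 and 79.9 in the same order, and estrogen array 1 overlapped the progesterone arrays. Other probe sets gave −0.22 for NFIX, −0.96 for PTPN4 and −0.26 for GSTT1. None of these passed (limma adjusted p from 0.669 to 0.914).

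**Figure D5:**
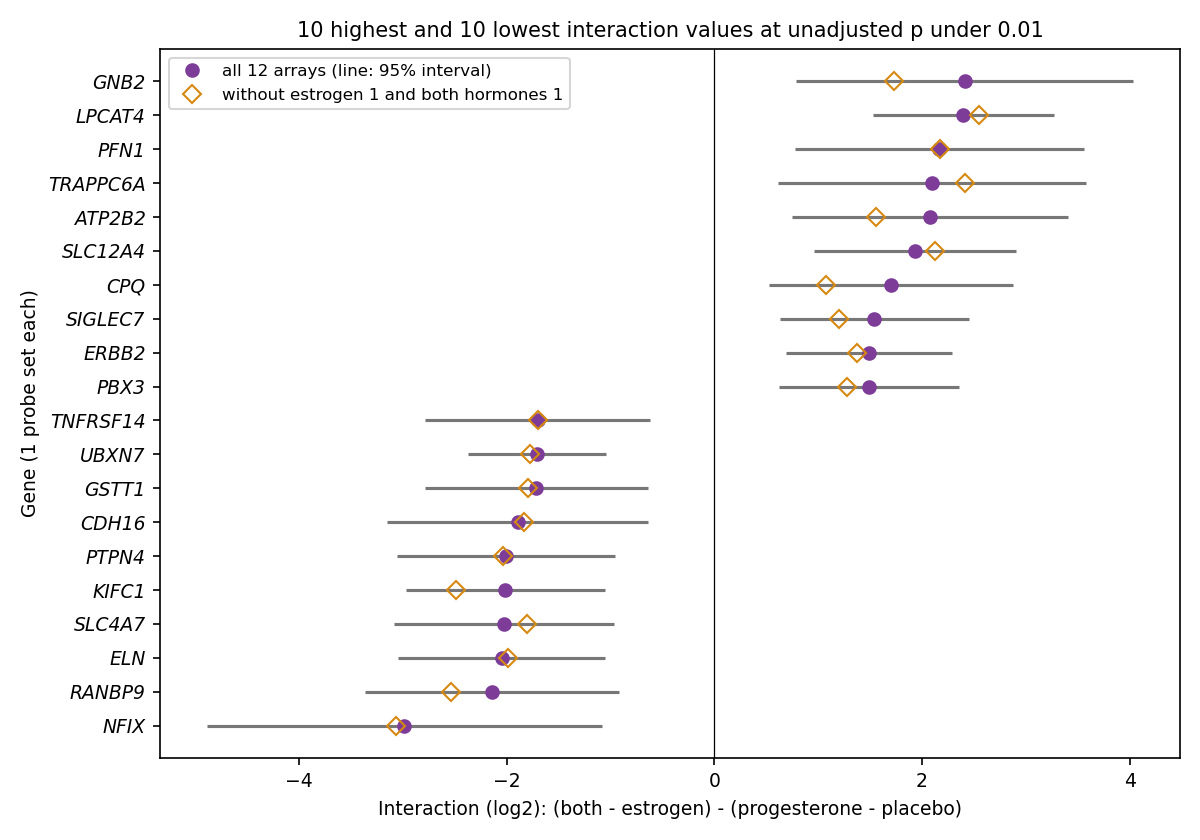
Interaction (log2) of the 10 highest and 10 lowest probe sets with 1 gene symbol at an unadjusted p under 0.01; filled points and lines are the value and 95% interval from all 12 arrays, open diamonds the value without estrogen array 1 and both hormones array 1. No diamond crosses 0; GNB2 moves most on the positive side, from 2.41 to 1.73, and CPQ from 1.70 to 1.08.

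Genes measured by several probe sets gave a further look at the same RNA. Of 128 probe sets at an unadjusted interaction p under 0.05 that belonged to such genes, compared with every other tested probe set of the gene, 107 of 163 pairs (65.6%) had the same sign. A pair with both members under that p was counted from each side, which raises the share. The share over all pairs was not computed, so the agreement cannot be set against it. In 11 genes at least 2 probe sets were under that threshold, and in 10 of them these agreed in sign, RANBP9 being the exception. These genes were singled out after their values were seen. They were CDH8, a neuronal cadherin (−0.84 and −1.22), CPQ (1.70 and 1.20), EIF4G1, a translation initiation scaffold (0.81 and 0.69), HSPA2, NKTR (−1.22 and −1.30), PTPN1, a tyrosine phosphatase (−0.74 and −1.69), PTPRS, a receptor tyrosine phosphatase of axons (1.65 and 1.40), RAB30, a Golgi GTPase (−0.70 and −1.58), SAR1A, a GTPase of vesicle export (0.81 and 1.01), and SLC12A4 (1.94 and 0.61).

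HSPA2, a chaperone of the HSP70 family, is 1 of them. A probe set read 167, 99.0 and 83.0 with placebo, 85.1, 58.1 and 87.1 with estrogen, 65.4, 46.1 and 56.0 with progesterone, and 151, 129 and 69.3 with both, an interaction of 1.43 ± 0.43 (SE, limma adjusted p = 0.914). Its other probe set read 3.72, 2.62 and 3.76 with progesterone and 4.66 on estrogen array 2, under the offset of 8.26 added before the log, and 97.5 to 373 on the remaining arrays. The offset sets the size of that difference, so none is given.

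Some changes kept their direction when the other hormone was present, 4 of estrogen and 2 of progesterone by a rule of unadjusted p under 0.01 alone and under 0.05 with the other hormone. For progesterone these were 1 of 80 higher (1.25%) and 1 of 89 lower (1.12%), near the 1.49% and 1.38% of all tested probe sets. For estrogen they were 2 of 21 (9.52%) and 2 of 19 (10.5%), beside 4.06% and 3.65% of all tested. ADGRE5, known as CD97, an adhesion receptor of leukocytes, read 35.3, 23.6 and 28.5 with placebo, 69.9, 73.7 and 93.9 with estrogen, 29.2, 36.3 and 41.9 with progesterone, and 98.9, 93.0 and 86.6 with both. The estrogen and combined arrays all lay above the other 6. Estrogen gave 1.16 alone and 1.19 on progesterone, neither past the threshold. The interaction was 0.03 ± 0.28 (SE), with a 95% interval of −0.57 to 0.64 (limma adjusted p = 0.998), so a difference of up to about that size would not have been seen. STARD8 gave 0.83 and 0.74 with estrogen and an interaction of −0.09, interval −0.83 to 0.64. The sign of the interaction turned for ADGRE5 with the values as deposited, with arrays shifted to a common median and with array weights, and for STARD8 with both high-ribosomal arrays left out.

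TIMP1, an inhibitor of matrix metalloproteinases, read lower wherever estrogen was given. It read 183, 109 and 103 with placebo, 117, 182 and 231 with progesterone, 41.8, 50.3 and 87.5 with estrogen, and 53.1, 78.2 and 51.8 with both. No estrogen-treated array reached an array without estrogen. Estrogen gave −1.07 alone and −1.44 on progesterone, with an interaction of −0.37 (interval −1.43 to 0.70, limma adjusted p = 0.989). COL11A2, a fibrillar collagen chain, gave −0.76 and −0.59 with an interaction of 0.17 (interval −0.43 to 0.76), which was −0.0140 with both high-ribosomal arrays left out. Its other probe sets gave 0.22 and 0.89.

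DMAC2L, a gene for a protein linked to the mitochondrial ATP synthase, was the only called gene of both hormones against placebo. It read 16.7, 16.8 and 22.6 with placebo, 102, 64.0 and 39.6 with estrogen, 101, 73.1 and 66.7 with progesterone, and 143, 89.6 and 129 with both. All hormone arrays lay above all placebo arrays. It rose by 2.18 with both hormones (limma adjusted p = 0.0212), beside 1.40 with estrogen and 1.68 with progesterone, which did not pass. The combined change was thus smaller than the sum, with an interaction of −0.89 ± 0.37 (SE, adjusted p = 0.957, interval −1.70 to −0.09). Its other probe sets gave interactions of 0.39 and 0.43 and did not share the rises. Their changes were −0.04 and 0.25 with both hormones, −0.27 and −0.05 with estrogen, and −0.15 and −0.12 with progesterone. The call was lost without placebo 1, 2 or 3, estrogen 2, both hormones 1 or 3 or progesterone 2, without the pair of high-ribosomal arrays, with no filter and with 4 times the offset.

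The other progesterone change that kept its direction was that of CTNNA2. CTNNA2, a neuronal alpha-catenin, read 760, 727 and 675 with placebo and 494, 366 and 452 with progesterone, and 669, 624 and 766 with estrogen and 550, 530 and 419 with both. The progesterone-treated arrays lay below all arrays without it, at −0.70 alone and −0.45 on estrogen, with an interaction of 0.25 (interval −0.28 to 0.79, limma adjusted p = 0.970), and 0.16 on a second probe set. PDYN, which encodes the prodynorphin from which dynorphin peptides are cut, read 124, 94.3 and 55.8 with placebo, 55.0, 79.6 and 92.4 with estrogen, 63.3, 35.0 and 27.3 with progesterone, and 20.8, 24.4 and 23.5 with both. Its progesterone change was −1.03 alone and −1.41 on estrogen, and the interaction was −0.38 with an interval of −1.42 to 0.67. Neither change passed.

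In 5 genes the combination lay apart from each of the other 3 groups at an unadjusted p under 0.01, while neither hormone alone reached 0.05, and these values chose them. BTRC, the substrate receptor of a ubiquitin ligase, read 139, 136 and 127 with placebo, 148, 104 and 90.8 with estrogen, 138, 177 and 166 with progesterone, and 40.9, 63.6 and 72.6 with both. The combined arrays lay below the other 9, with an interaction of −1.17 ± 0.33 (SE, limma adjusted p = 0.914), but 0.82 and 0.75 on its other probe sets. It was −0.76 with both high-ribosomal arrays left out. PCCA, a subunit of mitochondrial propionyl-CoA carboxylase, read 91.2, 56.2 and 86.3, then 66.2, 60.2 and 51.6, then 96.6, 77.7 and 67.2, and 19.6, 18.1 and 39.7 with both. ADSL, an enzyme of purine synthesis, read 116 to 166 with placebo, 133 to 174 with estrogen, 119 to 168 with progesterone and 82.4 to 100.25 with both. Each was lowest with both hormones without overlap, with interactions of −1.11 ± 0.38 and −0.76 ± 0.26.

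On the higher side, E2F1, the cell cycle transcription factor, read 26.1, 58.2 and 34.3 with placebo, 28.4, 47.7 and 65.7 with estrogen, 65.8, 32.6 and 32.5 with progesterone, and 173, 99.0 and 112 with both. POFUT2, an enzyme that adds fucose to secreted proteins, read 103 to 111 with placebo, 105 to 111 with estrogen, 101 to 130 with progesterone and 157 to 178 with both. In both genes the combined arrays lay above the other 9. Their interactions were 1.27 ± 0.53 and 0.51 ± 0.21 (SE, limma adjusted p = 0.958 for each). That of E2F1 was 0.69 with both high-ribosomal arrays left out and −0.07 on a second probe set.

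Genes of the serotonin system had more interaction values above 0 than below. Of 22 tested genes, 15 had interactions above 0 and 7 below, with a median of 0.17, and limma's adjusted test called 0 of them. Over all 5499 genes, each entered by its brightest probe set, 2787 lay above 0 and 2712 below, with a median of 0.0048. At an unadjusted p under 0.05 there were 2 serotonin genes above and 1 below, against 127 and 119 of all genes. HTR2C, a serotonin receptor, read 321, 368 and 396 with placebo, 281, 379 and 275 with estrogen, 253, 204 and 230 with progesterone, and 284, 371 and 296 with both, for an interaction of 0.63 ± 0.25 (SE, adjusted p = 0.954). GATA3, a transcription factor of serotonin neuron development, gave 0.75 ± 0.30. Their progesterone arrays were low, and those of GATA3 overlapped placebo array 1.

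MAOA, which degrades serotonin, read 287, 439 and 253 with placebo, 402, 559 and 799 with estrogen, 485, 373 and 489 with progesterone, and 309, 318 and 407 with both. The interaction was −1.19 ± 0.37 (SE, limma adjusted p = 0.914), with overlap between groups, and a second MAOA probe set gave 0.49. The transporter SLC6A4 read 476, 432 and 396, then 361, 388 and 377, then 267, 307 and 272, and 456, 495 and 220 with both. Its progesterone arrays lay below all arrays without progesterone, and array 3 of both hormones was lower still. The interaction of SLC6A4 was 0.57 ± 0.36, interval −0.22 to 1.36. The summed signal of the 7 measured serotonin neuron markers was 1027 to 1335 with placebo, 1113 to 1259 with estrogen, 949 to 1061 with progesterone and 901 to 1249 with both. Its part in the values of these genes was not tested.

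The hormone receptors gave no called interaction. The 2 tested probe sets of ESR1 had interactions of −0.71 ± 0.57 and −0.11 ± 0.37 (SE), and those of ESR2 −0.05 ± 0.26 and −0.68 ± 0.55. The PGR probe set read 0.63 to 10.5, around or below the offset of 8.26, and was left out with the dimmest, so no interaction of PGR was detectable here. Steroid receptors with their cofactors had 12 of 20 genes above 0 and a median of 0.14. Estrogen-responsive genes had 11 of 21 above 0 and a median of 0.03, and progesterone- and glucocorticoid-type response genes 7 of 16 and −0.10. With both high-ribosomal arrays left out, these last medians were 0.07 and 0.06, so that of the progesterone-type list turned its sign. In these lists 0 genes had an unadjusted interaction p under 0.05, and limma's adjusted test called 0.

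Among receptor families, GABA-A receptor subunits had the lowest median, −0.71 over 7 tested of 18 listed genes, with 5 below 0. GABRB2, a beta subunit, read 107, 86.9 and 117 with placebo, 182, 108 and 78.5 with estrogen, 233, 200 and 210 with progesterone, and 105, 140 and 94.6 with both. The progesterone arrays lay above the other 9, and its interaction was −1.10 ± 0.35 (SE, limma adjusted p = 0.922). It was the only subunit at an unadjusted p under 0.05, and GABRA3 at −1.53 had a placebo array at 6.77, under the offset. Glutamate receptor subunits had 8 of 12 above 0 and a median of 0.06, with the kainate subunit GRIK1 at 1.49 ± 0.48. The opioid list had 3 of 7 above 0 and a median of −0.01. Without the pair of high-ribosomal arrays the glutamate and opioid medians were 0.13 and 0.17.

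The lists around the leading genes held few other members under the unadjusted threshold. Phospholipid acyl remodelling, which holds LPCAT4, had 7 of 9 genes above 0 and a median of 0.26, with LPCAT4 alone at an unadjusted p under 0.05. The p97 adaptors, which hold UBXN7, had 4 of 9 above 0 and a median of −0.17, with UBXN7 alone at that threshold. Cell cycle and replication genes had 10 of 27 above 0 and a median of −0.07, and the kinases CDK1 (−1.36 ± 0.46) and CDK6 (−1.50 ± 0.43) were under the threshold. CDK6 read 112, 158 and 149 with placebo, 230, 105 and 202 with estrogen, 241, 190 and 183 with progesterone, and 57.6, 103 and 108 with both, with only estrogen array 2 overlapping the combined arrays among those of a single hormone. Its second probe set gave −0.93. Heat shock genes had 16 of 27 above 0 (median 0.09), and RNA helicases and splicing factors 15 of 38 (median −0.07). In that list DDX17 and the splicing factor SF3B4 (0.77 ± 0.30) were under the threshold above 0, and HNRNPK, an abundant RNA-binding protein, below it at −0.72 ± 0.27. The medians of the p97 and cell cycle lists were −0.04 and −0.02 without the pair of high-ribosomal arrays.

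Immediate early genes, which mark recent neuronal activity, had 8 of 17 above 0 and a median of −0.05, which turned to 0.06 without the pair of high-ribosomal arrays. FOSB read 136, 262 and 250 with placebo, 392, 233 and 219 with estrogen, 335, 294 and 270 with progesterone, and 132, 84.2 and 204 with both. The combined arrays of FOSB lay below all arrays of either hormone alone, at an interaction of −1.55 ± 0.47 (SE, limma adjusted p = 0.914). G-protein beta and gamma subunits had 4 of 8 above 0 (median 0.22, or 0.13 without the high-ribosomal pair), with GNB2 under the unadjusted threshold, and oxidative phosphorylation 21 of 50 (median −0.06), with the ATP synthase subunit ATP5MC2 at 1.99 ± 0.71. Limma's adjusted test called 0 genes in each of these lists.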

How the data were processed

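Transcript abundance was measured on human Affymetrix arrays hybridized with macaque RNA, so mismatches between the species can lower an intensity. The authors deposited 1 linear intensity per probe set and array, and the values show that each array had been scaled to a trimmed mean of 200.1 (2% trimmed from each end). For the probe summary method and software, a name is not given in the sources used here. Of 12558 probe sets without the 67 controls, 10943 carried 1 gene symbol in the platform table (8226 genes), 545 several and 1070 none.

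Values were converted to log2(intensity + 8.26), the offset being the pooled 10th percentile, and quantile normalized, and the lowest 40% by mean (5023) were left out. For dim probe sets this scale compresses fold changes. The 4 groups were fitted together with limma 3.58.1 in R 4.3.3 (lmFit, eBayes, 2-sided, Benjamini-Hochberg over 7535 probe sets, threshold 0.05). SE and 95% intervals come from this fit. With 3 arrays per group, the number of arrays limits the precision. The fit was tested on simulated data.

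Named genes needed 1 symbol and a mean of at least 2 times the offset in each group (6679 probe sets). They were the 10 highest and 10 lowest interactions among the 64 at p under 0.01, up to 6 reversed and 4 kept or combination-only changes per direction, genes named by earlier results, and the serotonin and receptor genes. The groups, rules and 25 gene lists were chosen with earlier results of these data known. Deviations of same-numbered arrays correlated at −0.22 to 0.41 over 18 pairs, above 0.1 in 5. Only between estrogen and both hormones were all 3 pairs above 0.1 (0.41, 0.30 and 0.13, the first being the arrays of high ribosomal signal). Differently numbered arrays of these groups reached 0.21 (estrogen 3 with both hormones 2) and 0.12 (estrogen 2 with both hormones 3). Those with an array 1 of high ribosomal signal gave −0.35 to −0.18. Numbers may pair animals in that comparison, but these values cannot show it. Over the 4 groups of the interaction, numbers were not taken to pair animals. Alternatives covered offset, normalization, filter, variance model, array weights, a replicate block and left-out arrays.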

Additional observations from a re-analysis of the deposited data

Results flagged for a closer look

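The 28S ribosomal RNA control, a probe set outside the tests, read 841 on estrogen array 1 and 1354 on both hormones array 1, over 5 times the highest placebo array, 90.8. These arrays enter the interaction with opposite signs. Without them the interaction of LPCAT4 was 2.55 (limma adjusted p = 0.0866), that of UBXN7 −1.77, PRRC2C −1.47, KIFC1 −2.49, CCNA2 −1.41 and POU3F2 1.10. The part of ribosomal RNA signal in the remaining results was not tested.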

How the results depend on the processing

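Over the alternatives, 969 of 983 interaction values of 47 named probe sets kept their direction and their side of the threshold, and 44 probe sets never turned. Most were chosen for large values on the same arrays, which the alternatives mostly reuse, and none passed in the main fit. Keeping direction and side is thus largely given by the choice. ADGRE5 turned to −0.0219 as deposited, −0.0575 with a common median, −0.15 with array weights, and −0.0866, −0.102 and −0.0761 without placebo 1, estrogen 1 and progesterone 1. STARD8 turned to 0.0147 with both high-ribosomal arrays left out and 0.0309, 0.14 and 0.0903 without placebo 3, estrogen 1 and both hormones 3, and COL11A2 to −0.0140 without the high-ribosomal arrays. Leaving out each array gave −0.102 to 0.199 for ADGRE5 and −0.242 to 0.14 for STARD8. With array weights, 2 interactions passed limma, LPCAT4 (2.32) and KIFC1 (−2.52), each at adjusted p = 0.0349 (ranges over all alternatives 0.0349 to 0.810 and 0.0349 to 0.9996). With no filter 1 passed, an unnamed dim probe set. Interactions at an unadjusted p under 0.05 numbered 684 with no filter (627.9 with no effect), 214 with the lowest 60% left out (251.2) and 654 with array weights. Calls of progesterone alone were 1 as deposited, 5 with no filter, 1 with 60% left out, 6 with array weights and 11 without the high-ribosomal arrays. Calls of estrogen on progesterone were 3 with 4 times the offset, 6 with no filter, 0 with 60% left out, 12 with array weights and 2 with the robust variance trend. Reversed progesterone changes were 430 with array weights, and reversed estrogen changes 112 with no filter, 24 with 60% left out, 117 with array weights and 98 without the high-ribosomal arrays. The cause of these shifts was not tested, except that the filters change how many probe sets are tested.

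With the replicate block, the interaction gave 0 calls and 399 probe sets at an unadjusted p under 0.05 (lowest limma adjusted p 0.628), and progesterone alone and estrogen on progesterone 0 calls each (LPCAT4 adjusted p = 0.0811 and 0.0879, UBXN7 0.0811 and PRRC2C 0.108 for progesterone alone). For progesterone on estrogen, where all same-numbered pairs correlated above 0.1, it gave 0 calls, with 234 under the unadjusted threshold; the median of estrogen-lowered probe sets on progesterone was −0.12.

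Leaving out each array in turn gave 0 to 1 interaction calls (1 without placebo 3) and 298 to 517 at an unadjusted p under 0.05 (517 without estrogen 1). It gave 0 to 6 calls of progesterone alone, 0 to 2 on estrogen (2 without estrogen 2), 0 to 0 of estrogen alone and 0 to 3 on progesterone, 149 to 294 reversed progesterone changes and 31 to 107 reversed estrogen changes. The medians on the other hormone ran from 0.0043 to 0.0689 and −0.0680 to 0.0329 for progesterone, and −0.0133 to 0.0996 and −0.0946 to 0.0381 for estrogen, higher and lower sets in turn. Signal limits dim probe sets: readings near the offset have no measurable size.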

Other observations

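Probe sets were also chosen with the other hormone present and read in its absence. The 112 probe sets higher when progesterone was added to estrogen (unadjusted p under 0.05) had medians of 0.69 there and 0.09 with progesterone alone, and the 104 lower ones −0.67 and 0.07. The 306 probe sets higher when estrogen was added to progesterone had 0.67 there and 0.02 with estrogen alone, and the 275 lower ones −0.64 and −0.02. Neither pair of comparisons shares arrays. The 216 probe sets chosen by progesterone on estrogen were under the 376.75 counted with no effect. Those sets need not hold a response, and values near 0 are then given by the choice.

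Markers of other cells in the dissected tissue gave interaction medians of −0.21 over 8 neuronal genes, 0.04 over 9 astrocyte genes, 0.06 over 6 oligodendrocyte genes, −0.02 over 6 microglial genes and −0.19 over 5 endothelial genes. The small lists of blood (2 genes), ependyma and choroid plexus (1), meninges (2) and cerebellum (6) gave 0.10, 0.28, −0.27 and −0.13. Serotonin neuron markers gave 0.13 over 6 tested genes. With both high-ribosomal arrays left out, the medians were −0.03 for serotonin neurons, 0.19 for astrocytes, −0.11 for microglia, 0.19 for blood, 0.70 for ependyma and choroid plexus, 0.48 for meninges and −0.32 for cerebellum. SOX9 was the only gene of these lists with an unadjusted interaction p under 0.05.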
